A study of Mus musculus with 10 samples.

Results

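The AP-1 and Egr immediate early genes described here are 10 genes of transcription factors, taken by symbol from the deposited gene table: Fos, Fosb, Fosl1, Fosl2, Jun, Junb, Jund, Atf3, Egr1 and Egr3. All 10 were found among the 55421 genes of the table, and all 10 passed the low-count filter that left 18509 genes for testing. The tissue came from skin ulcers cut surgically in db/db mice, which lack a working leptin receptor and grow obese and diabetic. RNA was sequenced after 7 days of administration. There were 5 libraries of ulcers that received Fu Huang ointment together with saline, and 5 of ulcers that received saline. Both groups carried the db/db mutation, the wound and the saline, and the labels name no age, sex or number of animals behind each library. The comparison asks which of these genes differed between ulcers with and without the ointment.

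Fos and Jun proteins bind DNA as pairs, and the pair is called AP-1 (activator protein 1). Immediate early genes are transcribed within minutes of a signal such as a growth factor, a cytokine, stretching or wounding, without need for new protein, and their messages are short-lived. Egr proteins are zinc finger factors of the same early wave. In skin these factors take part in keratinocyte migration, matrix remodelling and the activation of leukocytes and fibroblasts, and the same genes also respond quickly to the handling of tissue.

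None of the 10 genes differed between the ointment and the saline ulcers past the threshold. Of 3 patterns in their values, the first was that of Jun, which was steady. Fos, Fosl1, Fosl2 and Egr1 each had a single library far from the others of its group. Junb, Jund and Egr3 were each listed at 0 or 1 in a single library. Fosb and Atf3 had none of these 3 patterns. By edgeR's quasi-likelihood test with Benjamini-Hochberg adjustment over all genes tested, 0 of the 10 genes had an adjusted p under 0.05, where 1.67% of all tested genes did (0.692% higher and 0.983% lower with ointment). At an unadjusted p under 0.05 there was 1 member, Egr1, where 17.1% of all tested genes passed. DESeq2 and limma voom also called 0 of the 10. Of the 10 log2 fold changes of ointment over saline, 5 were positive and 5 negative, where 50.3% of all tested genes were negative, with a median of 0.01 against -0.003 over all tested genes. The standard errors of these log2 fold changes had a median of 0.54 for the 10 genes and 0.29 for all tested genes. In none of the 10 did the groups fail to overlap, where 6.54% of all tested genes had groups without overlap (3.44% with ointment below and 3.11% with ointment above).

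**Figure D1:**
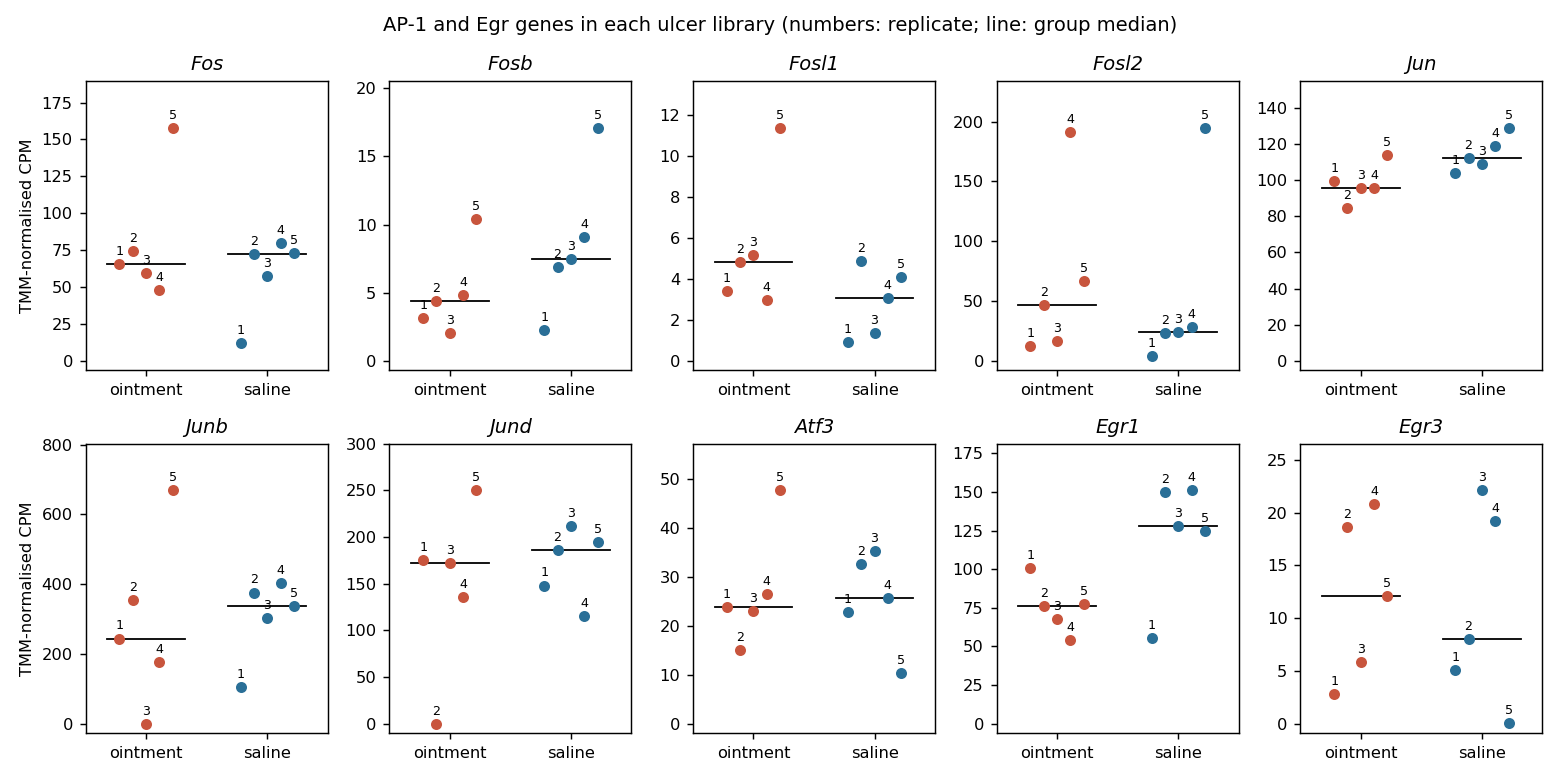
Level of each gene in each library, in CPM (counts scaled to a common library size, by TMM factors), with ointment libraries on the left and saline libraries on the right of each panel; the number beside a point is the replicate and the line is the group median. Jun lay between 84.7 and 129 CPM in all 10 libraries, whereas Fos was highest in ointment 5 (158 CPM) and lowest in saline 1 (12.3 CPM), and Junb and Jund were each listed at 0 in 1 ointment library.

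Library totals were 47.8 to 62.9 M counts with ointment and 58.1 to 62.7 M with saline. Mitochondrial genes held 0.452% to 0.661% of the counts in ointment 1, 3 and 5 and saline 3, and at most 6.19e-05% in the other libraries. The cause of that split was not tested. Markers of keratinocytes, fibroblasts and macrophages were above 0 in every library, as a wounded skin sample would hold. The summed level of 10 macrophage and monocyte markers was 6290 to 8570 CPM with ointment and 2590 to 5120 CPM with saline. That of 10 neutrophil markers was 1690 to 7820 CPM with ointment and 852 to 2730 CPM with saline, highest in ointment 5 and lowest in saline 1. In exact permutation tests the two-sided p was 0.00794 for the macrophage sum, the smallest possible, and 0.0476 for the neutrophil sum, and both had an adjusted p of 0.143 over 18 library measures. By edgeR, 3 of the 10 macrophage markers rose with ointment (Adgre1, Cd68 and Trem2, adjusted p 0.00649 to 0.0325), and none of the neutrophil markers passed, although all 10 had positive log2 fold changes. Of 10 hair follicle markers, 7 fell, and their sum was 15.4 to 43.4 CPM with ointment and 42.0 to 697 CPM with saline. Krt25, Krt28 and Krt73 were at 0 in some libraries. The part of these cells in the members' values was not tested. In bulk tissue, fewer cells of a type and less RNA per cell cannot be told apart.

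Per kilobase of annotated exon, the median level over the 10 libraries was 139 CPM per kb for Junb, 104 CPM per kb for Jund, 33.4 CPM per kb for Jun and 29.5 CPM per kb for Fos. The median level was 19.9 CPM per kb for Egr1, 11.5 CPM per kb for Atf3, 2.71 CPM per kb for Fosl2, 2.28 CPM per kb for Egr3, 1.85 CPM per kb for Fosl1 and 0.941 CPM per kb for Fosb. Every neighbouring pair in this order had ranges that overlapped. The order was most regular between Jund and Jun, where Jund was the higher in 9 of 10 libraries, and least regular between Egr3 and Fosl1, where Egr3 was the higher in 5 of 10. The Jund value divides by the single exon of 1.67 kb that GENCODE annotates.

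Fos, the founding member of the family (chromosome 12, 85473890 to 85477273 on GRCm38, plus strand, up to 4 exons), had 65.9, 74.5, 59.5, 47.9 and 158 CPM in ointment libraries 1 to 5, against 12.3, 72.7, 57.5, 79.8 and 73.0 CPM in saline libraries 1 to 5. The groups overlapped, and 8 of the 10 libraries lay between 47.9 and 79.8 CPM, with ointment 5 above and saline 1 below them. The means were 81.3 ± 44.3 CPM with ointment and 59.1 ± 27.4 CPM with saline (SD, n = 5 each), a log2 fold change of 0.46 (SE 0.48, 95% interval -0.60 to 1.52, adjusted p = 0.708 by edgeR). Without ointment 5 the log2 fold change was 0.07, without saline 1 it was 0.19, and without both ointment 5 and saline 1 it was -0.19. Neutrophil markers summed to 7820 CPM in ointment 5 and 852 CPM in saline 1, and their part in the Fos values was not tested.

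Junb, a Jun family member that often restrains the activity of Jun (chromosome 8, 84974484 to 84978718, minus strand, up to 2 exons), had 244, 354, 0, 178 and 669 CPM in ointment libraries 1 to 5, against 104, 376, 304, 403 and 336 CPM in saline libraries 1 to 5. It was highest in ointment 5 and, apart from the library listed at 0, lowest in saline 1, the same libraries that were the extremes of Fos. In the 9 libraries where Junb was above 0, the ratio of its deposited value to that of Fos was 3.70 to 4.75 with ointment and 4.61 to 8.47 with saline. The value of 8.47 was that of saline 1, and the other saline ratios were at most 5.28. The fitted log2 fold change of -0.08 had an SE of 1.22 (edgeR's adjusted p = 0.988) and turned to 0.25 with an SE of 0.46 (adjusted p = 0.874) without ointment 3, the library listed at 0. Junb shares 173 exon bases with Prdx2 on the opposite strand, a peroxiredoxin gene with a median of 289 CPM.

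Fos and Junb had their highest and lowest values above 0 in the same libraries while Jun was steady. The promoters of all 3 are shown, with that of Fosb, from RefSeq (GRCm38.p6). The part of promoter letters in these levels was not tested. Each window runs from 250 bases before the annotated start to 50 bases from it, 5′ to 3′ on the gene's strand, at chr12:85473640-85473939 (plus) for Fos, chr8:84978699-84978998 (minus) for Junb, chr7:19309996-19310295 (minus) for Fosb and chr4:95052173-95052472 (minus) for Jun. Capitals mark matches to the motifs searched, on either strand.
Fos: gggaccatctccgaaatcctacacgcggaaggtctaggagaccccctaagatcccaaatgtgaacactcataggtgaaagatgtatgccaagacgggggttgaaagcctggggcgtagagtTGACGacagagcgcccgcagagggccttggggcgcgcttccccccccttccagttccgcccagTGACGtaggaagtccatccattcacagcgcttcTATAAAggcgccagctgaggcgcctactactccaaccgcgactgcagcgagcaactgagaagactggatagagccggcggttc
Junb: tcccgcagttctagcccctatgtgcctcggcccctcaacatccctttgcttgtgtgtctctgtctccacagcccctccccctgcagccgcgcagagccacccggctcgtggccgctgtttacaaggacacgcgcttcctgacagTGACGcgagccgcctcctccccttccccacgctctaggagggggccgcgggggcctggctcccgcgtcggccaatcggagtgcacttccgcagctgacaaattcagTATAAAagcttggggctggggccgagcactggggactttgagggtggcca
Fosb: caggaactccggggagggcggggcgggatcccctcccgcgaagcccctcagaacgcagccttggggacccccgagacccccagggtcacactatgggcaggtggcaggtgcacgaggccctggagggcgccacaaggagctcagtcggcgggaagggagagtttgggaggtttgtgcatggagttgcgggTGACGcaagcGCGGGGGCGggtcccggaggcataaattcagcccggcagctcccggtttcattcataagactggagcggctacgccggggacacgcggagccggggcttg
Jun: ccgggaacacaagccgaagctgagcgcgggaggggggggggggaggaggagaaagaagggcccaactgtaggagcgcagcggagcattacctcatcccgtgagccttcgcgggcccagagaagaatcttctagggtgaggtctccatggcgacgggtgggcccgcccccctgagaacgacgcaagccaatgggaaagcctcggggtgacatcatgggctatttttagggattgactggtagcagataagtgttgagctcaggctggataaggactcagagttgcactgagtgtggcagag

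The motifs were the full cyclic AMP response element TGACGTCA, its core TGACG, the AP-1 site TGANTCA, the Egr site GCGNGGGCG, the TATA box TATAAA and the CArG box of serum response factor. The core TGACG is the start of the full element, so the pair can overlap. Promoter windows of 7 of the 10 members were used, and those of Fosl1, Egr1 and Egr3 were not analysed here. Each window sits at a RefSeq start, which can differ from the outermost GENCODE start of the gene positions given here. That GENCODE start was the same base for Fos and Jun, 30 bases downstream of the RefSeq start for Junb and 1210 bases downstream for Jund. It lay upstream for the others, at -6 bases from the RefSeq start for Fosb, -671 for Fosl2 and -34706 for Atf3. TGACG was found in 4 of the 7 windows (Fos, Fosb, Junb and Atf3), against 20.8% of 32817 promoter windows. Counted from 0 at the RefSeq start, in Fos it began at positions -129 and -66, in Junb at -106 and in Fosb at -60. TATAAA was found in 2 of the 7, Fos and Junb, against 13.6% of windows. It began at -33 in Fos, and in Junb at the first base of the RefSeq model. The Egr site was found in 2 of the 7, at -50 in Fosb and at -79 in Fosl2, against 5.56% of windows. TGACGTCA, TGANTCA and the CArG box, present in 1.79%, 7.81% and 1.63% of windows, had no match in these 7 windows. The Jun and Jund windows held none of the motifs, and the Jund window lies wholly before the GENCODE start of Jund. A match is a stretch of letters and no evidence of binding. Only exact matches were sought, and sites more than 250 bases before the start were outside the windows. The Jun window holds tgacatca, which differs from TGACGTCA by a single letter and so was not matched. A motif without a match may therefore still be present in a variant form or further upstream.

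Fosb, whose truncated form is known from neurons (chromosome 7, 19302696 to 19310051, minus strand), had 3.17, 4.41, 2.05, 4.84 and 10.4 CPM with ointment, against 2.28, 6.91, 7.49, 9.11 and 17.1 CPM with saline. The groups overlapped, ointment 5 was the highest ointment library and saline 1 the lowest saline library, as for Fos, and saline 5 was the highest of all. The fitted difference was -0.78 on the log2 scale (SE 0.54, adjusted p = 0.533), -1.25 without ointment 5 and -0.37 without saline 5. Its direction was opposite to that of Fos, and the ratio of Fos to Fosb was 9.90 to 29.1 with ointment and 4.26 to 10.5 with saline.

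Fosl1, which encodes Fra-1, a factor of migrating keratinocytes at wound edges (chromosome 19, 5447547 to 5455946, plus strand), had 3.41, 4.82, 5.17, 2.97 and 11.4 CPM with ointment, against 0.899, 4.87, 1.37, 3.07 and 4.10 CPM with saline. Its log2 fold change of 0.95 was the largest of the 10 (SE 0.53, 95% interval -0.22 to 2.13, adjusted p = 0.403 by edgeR), with ointment 5 the highest library and saline 1 the lowest. Without ointment 5 it was 0.52. Fosl1 shares 1163 exon bases with Ccdc85b on the opposite strand, which had a median of 52.0 CPM, so reads of the pair cannot be told apart where strand was not kept.

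Fosl2, which encodes Fra-2 (chromosome 5, 32135801 to 32157842, plus strand), had 12.4, 46.4, 16.8, 191 and 67.0 CPM with ointment, against 4.08, 22.9, 24.3, 28.2 and 195 CPM with saline. One library of each group stood near 190 CPM, ointment 4 and saline 5, and the others were at 67.0 CPM or below. The same 2 libraries held the highest summed blood markers, 3050 CPM in ointment 4 and 3890 CPM in saline 5, against 221 to 922 CPM elsewhere, and the part of blood was not tested. By edgeR the log2 fold change was 0.28 (SE 1.0, adjusted p = 0.935). It was -0.62 without ointment 4 and 1.74 without saline 5.

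Jun, the partner that gives AP-1 its strongest transactivation (chromosome 4, 95049034 to 95052222, minus strand, 1 exon), had 99.4, 84.7, 95.7, 95.5 and 114 CPM with ointment, against 104, 112, 109, 119 and 129 CPM with saline. Ointment 5 alone reached into the saline range. The means were 97.9 ± 10.7 CPM with ointment and 115 ± 9.91 CPM with saline (SD, n = 5 each), a log2 fold change of -0.23 (SE 0.11, 95% interval -0.46 to 0.01, adjusted p = 0.308 by edgeR). The standard deviation of log2 CPM over all 10 libraries was 0.18 for Jun, against 0.93 for Fos. Jun shares 232 exon bases with the antisense gene Junos, which had a median of 2.69 CPM.

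Jund, the Jun family member that most cells express at rest (chromosome 8, 70698949 to 70700616, plus strand, 1 exon), had 175, 0, 172, 136 and 250 CPM with ointment, against 148, 186, 212, 115 and 195 CPM with saline. Ointment 2 was listed at 0, and the other ointment libraries, at 136 to 250 CPM, overlapped the saline libraries. By edgeR the fitted log2 fold change was -0.22 (SE 1.11, adjusted p = 0.952) and turned to 0.10 (SE 0.23, adjusted p = 0.904) without ointment 2. Jund shares 877 exon bases with the antisense gene Gm11175, which had 0 to 0.554 CPM.

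The values of 0 for Junb and Jund were not shared by most genes of their level. Among 8757 genes with a median deposited value above 1000, 29 (0.331%) were listed at 0 in exactly 1 library, 14 of them in an ointment library and 15 in a saline library. Of those 29 genes, 17 (58.6%) had only single-exon transcripts, as did 103 (1.18%) of the 8757, and Jund was among the 17. Purb, a single-stranded DNA binding protein gene with 1 exon, was listed at 0 in ointment 3 like Junb and stood between 96.0 and 130 CPM in every other library. Ier2, an immediate early gene outside the 10, was listed at 0 in 6 of 10 libraries and at 41.2 to 91.5 CPM in the other 4. A 0 in these libraries is therefore given only as listed, since it may be a failed estimate. Such low values were not confined to an exact 0. Of the 8757 genes, 196 had their lowest library below a twentieth of the median. Egr3, with deposited values under 1000 in most libraries, was not among the 8757. It had a deposited value of 1 in saline 5.

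**Figure D2:**
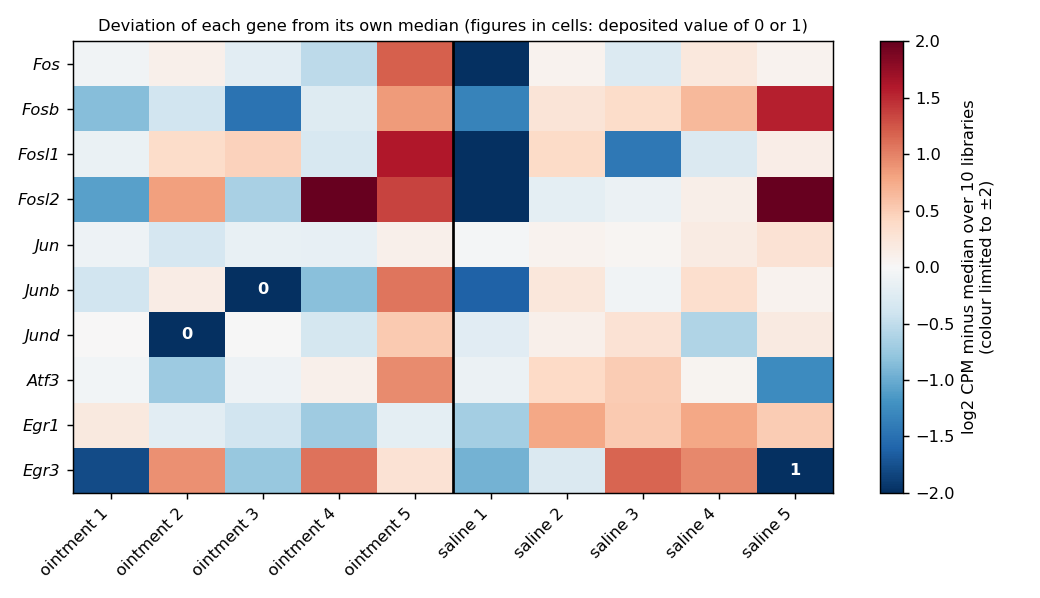
Log2 CPM of each gene minus its median over the 10 libraries, ointment libraries left of the line and saline libraries right of it; colour is limited to 2 log2 units either way and white digits mark deposited values of 0 or 1. Ointment 5 was the highest ointment library for 7 of the 10 genes and saline 1 the lowest saline library for 7 of the 10. Over all tested genes, these 2 libraries were also the ends of the first principal component (-100.7 and 90.7, 20.9% of the variance). The share of all tested genes with the same extremes was not computed.

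Atf3, a stress-induced partner of Jun proteins that often represses inflammatory genes (chromosome 1, 191170296 to 191218039, minus strand), had 23.9, 15, 23.0, 26.5 and 47.7 CPM with ointment, against 22.9, 32.6, 35.2, 25.7 and 10.3 CPM with saline. The groups overlapped over most of their range. The fitted log2 fold change was 0.10 (SE 0.37, 95% interval -0.71 to 0.91, edgeR's adjusted p = 0.935) and turned to -0.20 without ointment 5.

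Egr1, a zinc finger factor induced by growth factors and injury (chromosome 18, 34859823 to 34864984, plus strand), had 101, 76.4, 67.6, 53.9 and 77.3 CPM with ointment, against 55.1, 150, 128, 151 and 125 CPM with saline. Saline 1 lay within the ointment range, and the other saline libraries all lay above the highest ointment library. The means were 75.2 ± 17.1 CPM with ointment and 122 ± 39.3 CPM with saline (SD, n = 5 each), a log2 fold change of -0.70 (SE 0.27, 95% interval -1.29 to -0.10, unadjusted p = 0.0265 and adjusted p = 0.218 by edgeR). Without saline 1 it was -0.89 (SE 0.17, unadjusted p = 0.000615 and adjusted p = 0.0666). No alternative brought its adjusted p under 0.05, and the value stayed between -0.89 and -0.59 under all of them. The summed endothelial markers were 395 to 687 CPM with ointment and 625 to 900 CPM with saline, and the summed pericyte and smooth muscle markers 473 to 1070 CPM with ointment and 999 to 1490 CPM with saline. In saline 1, the saline library with the lowest Egr1, the endothelial sum was 662 CPM and the pericyte and smooth muscle sum 1490 CPM. The part of these cells in the Egr1 values was not tested.

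Egr3, a relative of Egr1 known from T cells, muscle spindles and neurons (chromosome 14, 70077203 to 70082614, plus strand), had 2.83, 18.6, 5.80, 20.8 and 12.1 CPM with ointment, against 5.09, 8.02, 22.1, 19.2 and 0.0165 CPM with saline. The last value, in saline 5, was a deposited value of 1. Both groups spanned almost the same range apart from that library, and by edgeR the log2 fold change was 0.15 (SE 1.04, adjusted p = 0.969), or -0.18 (SE 0.63, adjusted p = 0.942) without saline 5.

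**Figure D3:**
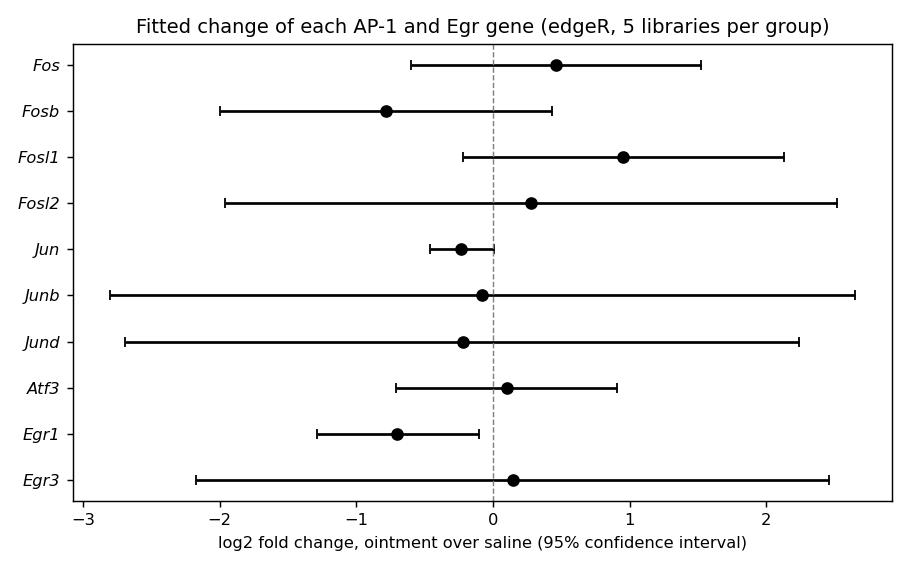
Log2 fold change of ointment over saline for each gene, with its 95% confidence interval from edgeR with 5 libraries per group. The interval of Egr1 ran from -1.29 to -0.10 and is not adjusted for the number of genes, and those of Junb, Jund, Fosl2 and Egr3 spanned more than 4 log2 units.

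Ratios between members within a library do not depend on how libraries are scaled. Fos relative to Egr1 was 0.653, 0.976, 0.880, 0.888 and 2.05 in ointment libraries 1 to 5, against 0.223, 0.483, 0.451, 0.529 and 0.585 in saline libraries 1 to 5, with no overlap between the groups. Fosl1 relative to Egr1 was 0.0338 to 0.147 with ointment and 0.0108 to 0.0328 with saline, again without overlap. Saline 1, which had the lowest level of all 3 genes among the saline libraries, had the lowest Fos ratio and the second lowest Fosl1 ratio. These were 2 of 21 ratios among the 7 members with values above 1 in every library, and they were singled out after their values were seen, so no test is given. Over 16804 genes, the ratio to Egr1 was above that of every saline library in all ointment libraries for 4.93%, and below for 0.155%.

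**Figure D4:**
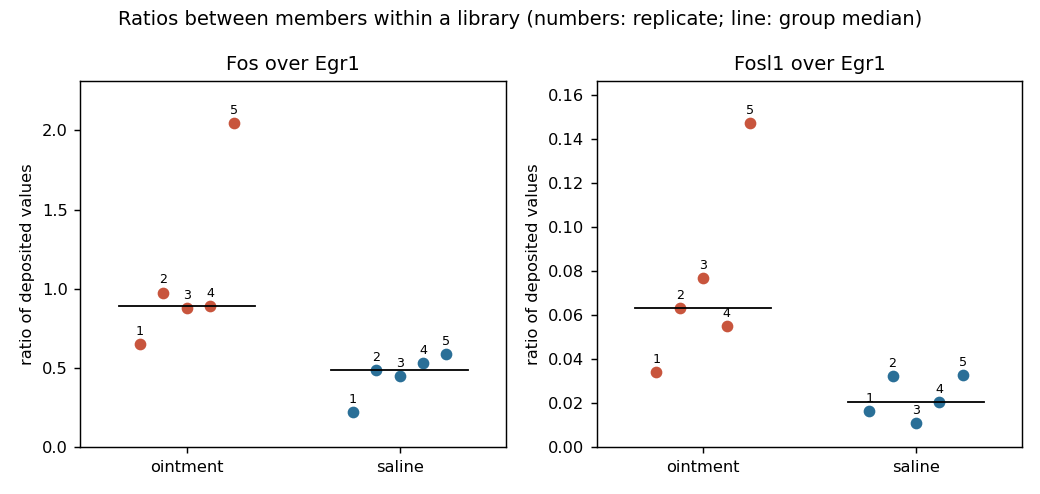
Ratio of the deposited values of Fos to Egr1 (left) and of Fosl1 to Egr1 (right) in each library, ointment left of saline, with the replicate number beside each point and the group median as a line. The lowest ointment ratio was 0.653 for Fos, above the highest saline ratio of 0.585, and 0.0338 for Fosl1, above 0.0328.

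The genes nearest in pattern were found by the mean absolute difference of log2 CPM, each gene centred on its mean over the 10 libraries, among 11867 genes with a mean of at least 5 CPM. The 3 members with the largest spread were Junb, Jund and Egr3, each because of a single deposited value of 0 or 1. Their nearest genes shared the low library, which a distance led by that value selects for. For Junb these were Purb (0.59), Pheta2 (1.09) and Brip1os (1.26), which had 0, 0.0165 and 0.446 CPM in ointment 3. For Jund they were Aplnr (0.49), Hcar2 (0.70) and Tspyl3 (0.78), each listed at 0 in ointment 2. For Egr3 they were Dusp18 (0.74), Ticam1 (0.84) and Uqcc3 (0.87), all at or below 0.149 CPM in saline 5. Fos and Egr1 were added after their values were seen. Nearest to Fos were Sgms2 (0.22), Plaur, the urokinase receptor gene (0.26), and Eif4e3 (0.27), against a median difference of 0.64 over the candidates. Nearest to Egr1 were Ppp1r10 (0.22), Selenok (0.23) and Ate1 (0.23), against a median of 0.56. The nearest genes lie below such medians because they were selected so, and shared regulation was not tested.

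Among other genes of the pathway, Klf6, Per1, Hbegf and Mmp9 rose with ointment and none fell. Of 27 other immediate early genes tested, 2 rose, 0 fell and 25 did not pass, where 1.67% of all tested genes were called. Klf6, a zinc finger factor of injury responses, had 271, 310, 270, 241 and 327 CPM with ointment, against 180, 192, 176, 189 and 208 CPM with saline (0.59 on the log2 scale, SE 0.11, edgeR's adjusted p = 0.03). Per1, a clock gene that also responds to glucocorticoids and cyclic AMP, had 98.2, 95.5, 124, 74.7 and 163 CPM with ointment, against 24.0, 41.8, 45.7, 46.0 and 62.4 CPM with saline (2.53-fold, adjusted p = 0.0412). In both genes the groups did not overlap, and each passed in 2 of the 10 fits that left out 1 library (without ointment 4 or saline 5) and in none of the other 8, with adjusted p up to 0.071 for Klf6 and 0.0982 for Per1. The matricellular gene Ccn2 (0.81 on the log2 scale, adjusted p = 0.0584) and the cytokine signalling inhibitor gene Socs3 (1.85, adjusted p = 0.134) did not pass, and the median over the 27 was 0.44, against -0.003 over all tested genes. Ier2 did not enter the test.

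The other Egr gene with a measurable level, Egr2, which controls myelination in Schwann cells, had 10.5, 0.897, 10, 18.4 and 11.9 CPM with ointment, against 28.5, 24.4, 27.1, 21.2 and 21.6 CPM with saline. The groups did not overlap, but ointment 2 was far below the rest and the test was not passed (-1.25 on the log2 scale, SE 0.55, edgeR's adjusted p = 0.285), and without ointment 2 the change was -0.95 (adjusted p = 0.0725). The Egr corepressor genes Nab1 (-0.41, adjusted p = 0.607) and Nab2 (-0.06, adjusted p = 0.854) did not pass either, Egr4 was too low to test, and the median of these 3 tested genes was -0.41. Without saline 5, Nab1 was -0.23. Of 8 Schwann cell markers, all above 0 in every library, 7 had negative log2 fold changes (median -0.66), 1 fell (Sox10, -1.45, adjusted p = 0.0401) and none rose. Their sum was 116 to 286 CPM with ointment and 106 to 345 CPM with saline, and the part of these cells in the Egr2 values was not tested. None of 13 other basic leucine zipper genes related to AP-1 passed, with 8 positive and 5 negative log2 fold changes and a median of 0.07. Those with the smallest p were Atf5 (-0.55, adjusted p = 0.092), Atf2 (0.60, 0.155), Batf2 (-1.12, 0.235) and Mafg (0.84, 0.403).

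Upstream of the factors, 1 of 21 kinase, ligand and regulator genes rose and 20 did not pass, where 1.67% of all tested genes were called. The median log2 fold change of the 21 was 0.12. Hbegf, a ligand of the EGF receptor that drives keratinocyte migration, had 38.7, 81.6, 54.4, 40.0 and 60.0 CPM with ointment, against 21, 31.9, 14.1, 20.4 and 13.7 CPM with saline. This was a 2.72-fold difference without overlap (adjusted p = 0.0379 by edgeR), and it passed in 2 of the 10 fits that left out 1 library, without ointment 4 or saline 2, and in none of the other 8 (adjusted p up to 0.0904). Map3k8 (0.82, adjusted p = 0.146), the serum response factor coactivator gene Mrtfb (-0.75, 0.188) and the EGF receptor ligand gene Areg (0.97, 0.331) did not pass. Without saline 2, Areg was 1.64 and passed (adjusted p = 0.0453), and without ointment 5, Map3k8 was 0.50.

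Of 20 genes known as AP-1 targets, 19 had positive log2 fold changes, where 50.3% of all tested genes were negative. Of the 20, 1 rose and 19 did not pass, where 1.67% of all tested genes were called. The list was chosen with earlier results of these data known, so no test of its direction is given. Mmp9, a gelatinase, had 304, 476, 390, 282 and 592 CPM with ointment, against 55.3, 115, 74.8, 139 and 77.9 CPM with saline, with no overlap (4.42-fold, adjusted p = 0.0143 by edgeR). The heme oxygenase gene Hmox1 (1.10, adjusted p = 0.0757), the urokinase gene Plau (0.52, 0.0966) and the cytokine gene Il6 (3.29, 0.116) did not pass. Il6 had 97.3 CPM in ointment 5, against 4.25 to 22.9 CPM in ointment 1 to 4, and was 2.15 without that library. Hmox1 passed without ointment 4 (1.25, adjusted p = 0.0467). The median over the 20 was a log2 fold change of 1.10, against -0.003 over all tested genes. Many of these genes are also products of macrophages and neutrophils, whose summed markers averaged 7240 and 4020 CPM with ointment and 3850 and 1580 CPM with saline, and the part of those cells was not tested. Of 10 genes known as Egr1 targets none passed, 7 were positive and the median was 0.28. Thbs1 (1.99, adjusted p = 0.175), the tissue factor gene F3 (1.05, 0.178), Tnf (1.45, 0.2) and Icam1 (0.43, 0.353) had the smallest p, and all 4 values were positive, where that of Egr1 itself was -0.70. Without ointment 2, Icam1 was 0.21, and without ointment 5, Tnf was 0.96.

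**Figure D5:**
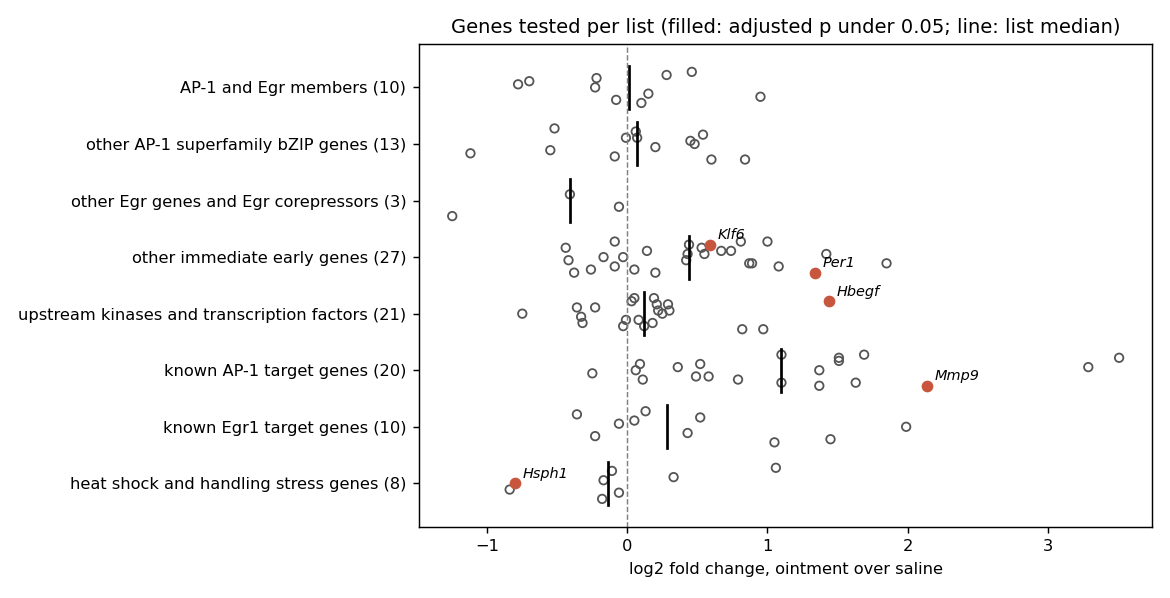
Log2 fold change of ointment over saline for each gene tested in the 10 members and 7 related lists, with the number tested in parentheses; filled points passed an adjusted p of 0.05 and vertical lines are list medians. None of the 10 members was filled, and the AP-1 target list had a median of 1.10 with Mmp9 as its single filled gene.

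Genes of heat shock and handling stress were also examined, because immediate early genes respond to the handling of tissue. Their summed level was 2240 to 3160 CPM with ointment and 2710 to 3030 CPM with saline (exact permutation p = 0.381), and the median over the 8 tested was a log2 fold change of -0.14. Hspa8 alone averaged 1780 CPM with ointment and 2000 CPM with saline, of mean sums of 2690 and 2860 CPM. The sum therefore says little about genes of lower level, and Hspa1b was listed at 0 in 5 of the libraries. Of 8 tested, Hsph1, a chaperone gene of the Hsp110 family, fell to 37.3 ± 5.10 CPM with ointment, against 65.0 ± 4.33 CPM with saline (SD, n = 5 each; log2 fold change -0.80, edgeR's adjusted p = 0.0143), and passed in all 10 fits that left out 1 library. The other 7 did not pass, among them Hspa1a (-0.84, adjusted p = 0.164), Dnajb1 (-0.18, 0.488) and Hspa8 (-0.17, 0.49). The labels do not give the time between excision and RNA extraction, and its part in the members' values was not tested.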

How the data were processed

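Libraries were prepared from total RNA of ulcer tissue by a SMARTER kit for mRNA, and strand is not mentioned in the labels' protocols. The submitters' processing notes name GRCm38 and mm10 as the build; aligner and counting tool are not given in the sources used. The authors deposited 1 table of whole-number estimated counts per Ensembl gene, without normalization. The design had assumed raw counts; the values were treated as estimated counts, since well-expressed genes were listed at 0 in single libraries, and needed no rounding.

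Columns were matched to samples by description and title. Groups were compared with edgeR 4.0.16 (R 4.3.3): TMM factors, filterByExpr (minimum count 10, minimum total 15), robust quasi-likelihood F-test, group as the only term, two-sided, adjusted over 18509 genes at 0.05. Levels are TMM-normalised CPM, and likeness used log2 CPM with a prior count of 2. DESeq2 1.42.0, limma 3.58.1 voom and other alternatives are given in the closing section. The pipeline was tested on simulated counts. Positions and exon lengths came from GENCODE mouse release 21, promoters from RefSeq (7 of 10 members matched). Genes of other lists are named if called or among the 4 smallest p. Members and lists were chosen with earlier results of these data known. Since no label ties a library to its own animal, p-values describe how these samples scatter, which could be technical variation.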

Additional observations from a re-analysis of the deposited data

Results flagged for a closer look

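Single libraries that stood far from the other 4 of their group were found in 4 of 20 groups of 5 libraries (the 10 genes in each treatment), by the gap to the nearest library relative to the group's range. The cut was a gap of 0.71 of the range, which about 1 in 20 groups of 5 independent, normally distributed values would pass. The 20 groups share the same libraries, and the share over all tested genes was not computed. The count is therefore not set against chance. Fos was 158 CPM in ointment 5, against 47.9 to 74.5 CPM in ointment 1 to 4. Fosl1 was 11.4 CPM in ointment 5, against 2.97 to 5.17 CPM in the others. Fosl2 was 195 CPM in saline 5, against 4.08 to 28.2 CPM in saline 1 to 4. Egr1 was 55.1 CPM in saline 1, against 125 to 151 CPM in saline 2 to 5.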

How the results depend on the processing

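The number of the 10 members called was 0 under all 19 alternatives. The count of all genes called, 310, was 1677 with DESeq2 (873 higher, 804 lower), 59 with 4 libraries per group, and 102 to 422 when 1 library was left out. Under a replicate block it was 0, but same-numbered libraries did not deviate together (correlations -0.077 to 0.056, and 1 of 10 libraries matched its own number best), so they were not paired. The block also ended the calls of Klf6, Per1, Hbegf, Mmp9 and Hsph1 (adjusted p 0.141 to 0.161). Signs turned as follows, the cause not being tested except that each setting drops libraries. Leaving out 1 library gave a log2 fold change of -0.504 to 0.097 for Jund, -0.177 to 0.559 for Egr3, -0.65 to 0.246 for Junb, -0.616 to 1.744 for Fosl2, -0.201 to 0.254 for Atf3 and -0.135 to 0.002 for Nab2. With 4 libraries per group, without ointment 5 and saline 1 (added after the data were seen as the ends of the first principal component), values were -0.192 for Fos, -0.024 for Fosl2, -0.235 for Atf3 and -0.036 for Egr3. Fosb, Fosl1, Jun and Egr1 kept their sign in every fit that gave a value; Fosl1 had none with the filter at 5 CPM. With limma voom, Junb was -4.51, Jund -2.80 and Egr3 1.46, and the cause was not tested. DESeq2 also called Atf5, Ccn2, Socs3, Map3k8, Hmox1, Plau, Il6 and Thbs1, and Per1 lost its call without a low-count filter (adjusted p = 0.0505). Depth was similar in all libraries; with all values divided by 4 the SE was 0.543 for Fosb and 0.515 for Fosl1, against 0.544 and 0.526 as reported.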
